A study of Sus scrofa with 6 samples.

Results

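Interferon-stimulated genes were examined in the abdominal aorta of pigs on normal chow (NC) or on a diet high in fat, cholesterol and fructose (HFCF). The group was a list of 41 gene symbols, and its members were the rows of the expression table that carried one of these symbols. Of the 41 symbols, 37 were found among 30477 genes, and IFIT3, GBP1, SP100 and XAF1 had no row under their name. The animals were male Wuzhishan pigs, a miniature breed, and the labels name no genetic modification. They were 3 to 4 months old by the sample labels and 6 to 7 months old at purchase by the study's methods, and they were fed for 6 months. Each group had 3 pigs with 1 RNA-seq library each, named NC1 to NC3 and HFCF1 to HFCF3, and values of 3 pigs are given in this order throughout. Each library was made from abdominal aorta tissue without sorting of cells, so a level is a sum over all its cells, and a change in cell numbers and a change in RNA per cell cannot be told apart.

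Interferons are secreted proteins that alert cells to infection or to nucleic acids in the wrong place. Type I interferons act through the receptor IFNAR1 and IFNAR2 and the kinases JAK1 and TYK2 on a transcription factor complex that includes STAT2 and IRF9 and switches on antiviral genes. Type II interferon, made mainly by T and NK cells, acts through its own receptor, and its targets overlap with those of type I. Macrophages, endothelial cells and smooth muscle cells can all respond, and interferon-stimulated genes are known to be active in a part of the macrophages of atherosclerotic plaques.

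Expression was given as FPKM, the fragments of a gene per kilobase of its exons, scaled to the number of mapped reads, so levels of different genes may be compared. FPKM summed to between 272207 and 338690 per library. Sequencing depth is not known from these values, and their precision was taken from the spread between pigs. Differences between diets were tested with limma on log2(FPKM + 0.1) in 15384 genes, those averaging 0.1 FPKM or more, and a gene was called at a Benjamini-Hochberg adjusted p under 0.05. Nothing in the labels ties pigs to litters or batches. The middle of the log2 fold changes (HFCF over NC) lay at 0.32 as deposited and between -0.075 and 0.09 under 3 other scalings, so differences are also given relative to this median. Of all called genes, 78.7% were higher as deposited, 50.8% with median-ratio scaling, 49.5% with quantile normalization and 59.3% as TPM.

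The label of the tissue was checked against markers of the vessel wall. The 9 contractile smooth muscle markers summed to between 16413 and 23824 FPKM in NC pigs and between 8345 and 13266 FPKM in HFCF pigs. Of these 9 markers, 7 were lower in HFCF pigs and 2 were not called. The 14 macrophage markers summed to between 52.6 and 57.4 FPKM in NC pigs and to 1533, 641.4 and 633.7 FPKM in HFCF pigs, and 12 of the 13 tested were higher (LYZ was listed at 0 in all libraries). NK cell markers summed to at most 2.48 FPKM in NC pigs and at least 30.1 FPKM in HFCF pigs, of which NKG7 alone gave 58.9, 28.3 and 29.0 FPKM in HFCF pigs. T cell markers summed to at most 2.21 and at least 3.70 FPKM, B and plasma cell markers to at most 14.0 and at least 36.2 FPKM, and neutrophil markers to at most 2.21 and at least 5.40 FPKM. Against 22.8% of all tested genes, those called higher were 3 of 8 tested markers for T cells and 2 of 6 for NK cells (NKG7 and XCL1). They were 1 of 5 for B and plasma cells (CD79A) and 1 of 3 for neutrophils (CSF3R). TRAT1, 1 of the 3 T cell markers called, averaged 0.016 FPKM in NC pigs, and XCL1 averaged 0.020 FPKM. Both passed the filter on low values only through the HFCF group, so their calls are a description only. The 7 endothelial markers included no called gene at the adjusted threshold, with 2 at an unadjusted p under 0.05. The part of these cell types in the values below was not tested.

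Interferon-stimulated genes were higher in the aorta of HFCF pigs in 24 of the 36 members that were tested, against 22.8% of all tested genes. No member was called lower, against 6.16% of all tested genes. Their median log2 fold change of 1.83 exceeded that of all genes by 1.51. Every HFCF pig was above every NC pig in 25 members, against 36.1% of all tested genes. Every HFCF pig was below every NC pig in IRF9 alone, against 1865 of all 15384 tested genes. By the limits of the study, a ratio of means over 2 with an unadjusted p under 0.05, 23 members were higher, against 20.3% of all tested genes. The ratio of group means was at least 4 in 15 members, between 2 and 4 in 11 and under 2 in 10. The same counts over all tested genes are not given. They include members that were not called, such as DDX58 (ratio 26.6) and SAMD9 (ratio 2.37, log2 fold change -0.37), in which HFCF2 alone was high. OASL was not tested, and DDX58 passed the filter on low values only through the HFCF group, with an NC mean of 0.065 FPKM.

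**Figure D1:**
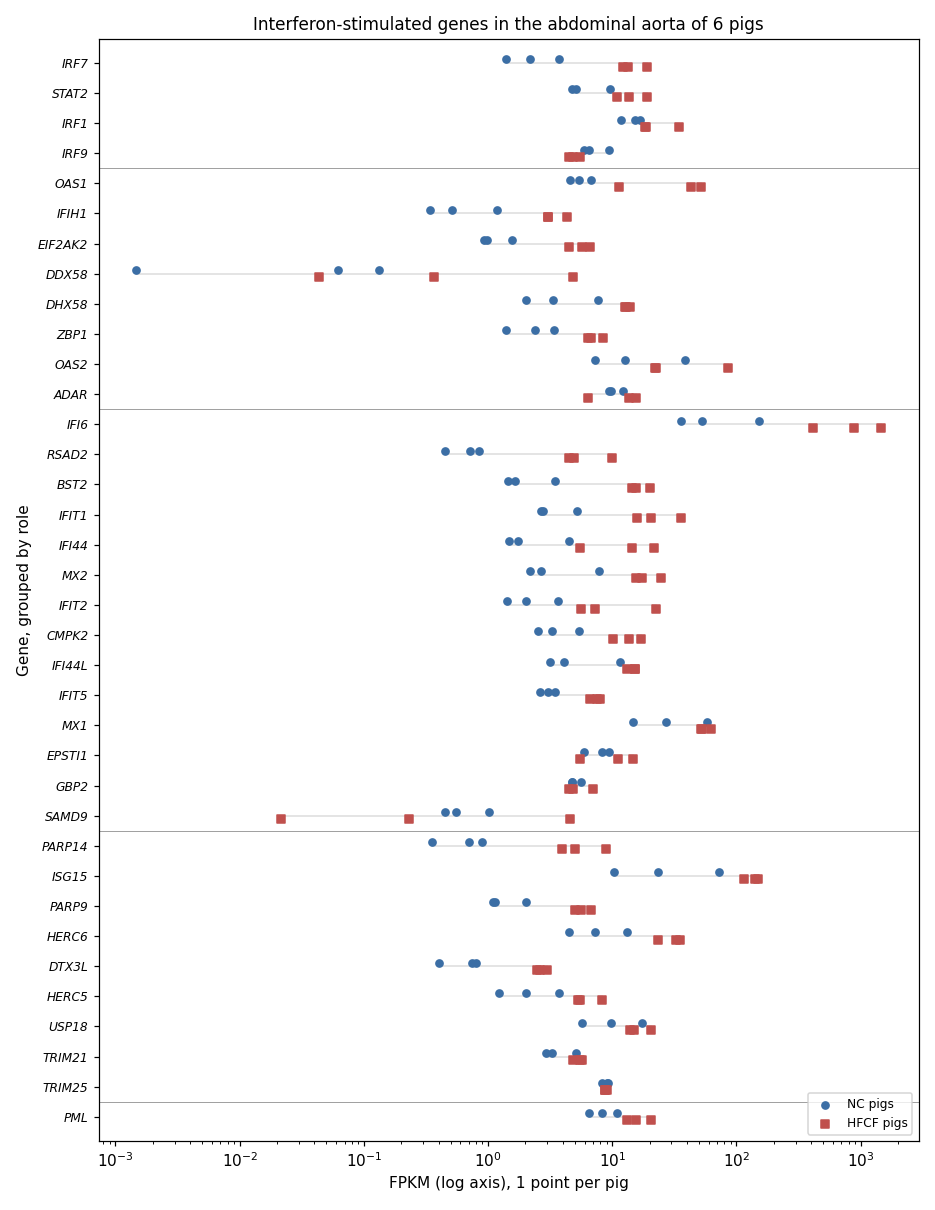
FPKM of 36 interferon-stimulated genes on a log axis, with 1 blue circle for each NC pig and 1 red square for each HFCF pig, grouped from top to bottom as transcription factors, sensors, effectors, conjugation genes and nuclear bodies. The HFCF pigs lay to the right of all NC pigs in 25 genes, and IRF9 showed the opposite order.

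The count of 24 depended on single pigs and on the scaling. It was 15 without HFCF1, 14 without NC1 and 26 without NC3, and lay between 16 and 19 without one of the other pigs. Calls over all tested genes fell too. The share called higher, 22.8% with all pigs, was 18.1% without HFCF1, 12.7% without NC1 and 18.2% without NC3. It lay between 14.9% and 18.2% without one of the other pigs. Under median-ratio scaling 17 members were higher, while 13.2% of all genes were. The 14 members called in the main test and in all 15 alternatives were IRF7, IFIH1, EIF2AK2, ZBP1, IFI6, RSAD2, BST2, IFIT1, CMPK2, IFIT5, PARP14, PARP9, HERC6 and DTX3L. The share of all tested genes called in every alternative is not given, so these 14 are a list only.

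**Figure D2:**
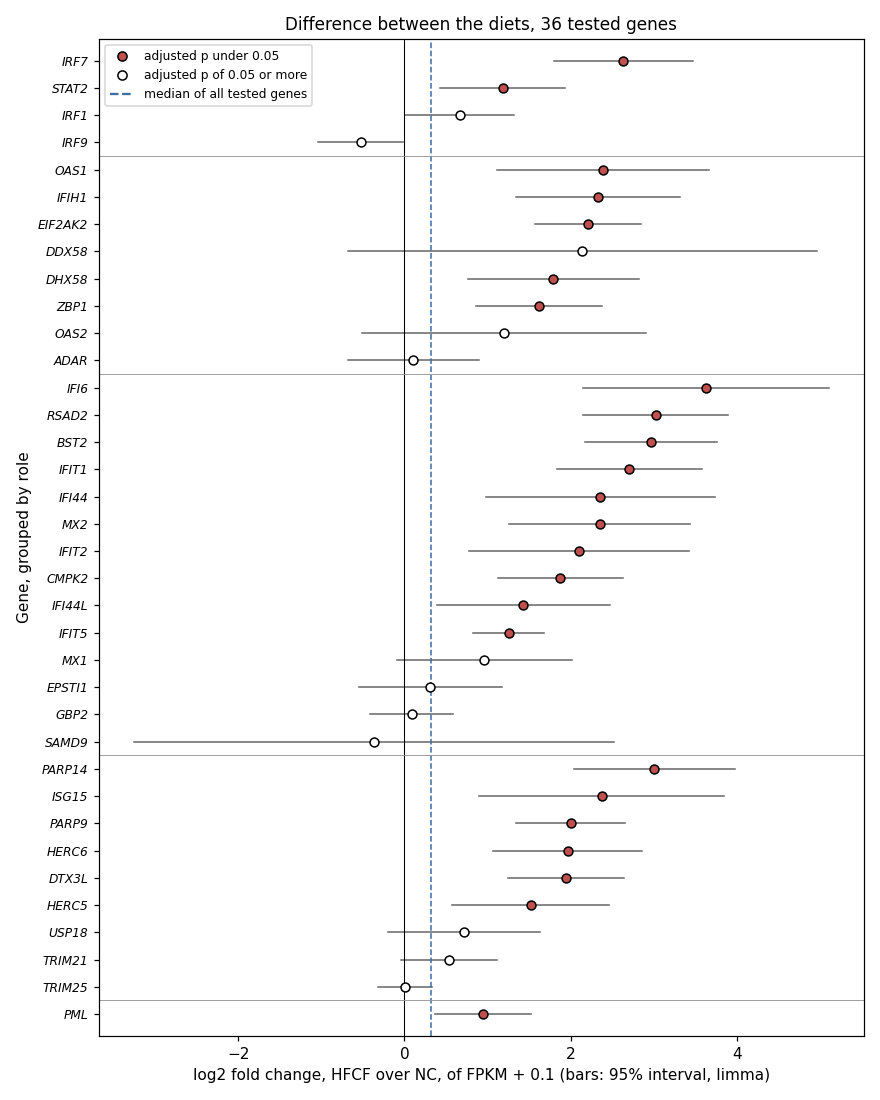
log2 fold change of FPKM + 0.1 (HFCF over NC) of the 36 tested genes with the 95% interval from limma, filled red where the adjusted p was under 0.05. The dashed line is the median of all tested genes at 0.32, and 24 filled points lie to its right.

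Of the 4 transcription factors, 2 were higher in HFCF pigs and 2 were not called (22.8% of all tested genes were higher). IRF7, the factor that amplifies type I interferon production, had 2.19, 1.40 and 3.71 FPKM in NC pigs and 19.0, 12.1 and 13.4 FPKM in HFCF pigs. The groups did not overlap, and its log2 fold change was 2.63 ± 0.36 (SE, n = 3 each, limma adjusted p = 0.00337), or 2.31 relative to all genes. STAT2, a signal transducer of the type I response, had 4.79, 5.15 and 9.56 FPKM in NC pigs and 19.0, 10.9 and 13.8 FPKM in HFCF pigs. NC3 came close to the lowest HFCF pig, and the log2 fold change of 1.18 ± 0.32 (limma adjusted p = 0.032) was called in 6 of 15 alternatives, with adjusted p from 0.0164 to 0.111. STAT2 was not called under any of the 3 other scalings. IRF1, a factor shared by the type I and type II responses, had 11.9, 15.2 and 16.6 FPKM in NC pigs and 34.7, 18.5 and 18.7 FPKM in HFCF pigs. The groups did not overlap but only HFCF1 stood well apart, and the log2 fold change of 0.66 ± 0.28 was not called (limma adjusted p = 0.114).

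IRF9, the DNA-binding subunit of the complex with STAT2, was the one tested member with all HFCF pigs below all NC pigs. It had 5.92, 6.44 and 9.37 FPKM in NC pigs and 5.46, 4.52 and 4.79 FPKM in HFCF pigs. The closest pigs were NC1 and HFCF1, and the log2 fold change of -0.52 ± 0.22 was not called with the deposited values (limma adjusted p = 0.111). Relative to the median of all genes it was -0.85. IRF9 was called lower under each of the 3 other scalings, with an adjusted p of 0.0229 (median ratio), 0.0204 (quantile) and 0.0448 (TPM) by limma.

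Among the sensors of nucleic acids, 5 of 8 tested members were higher and none was lower, against 22.8% and 6.16% of all tested genes. Their median log2 fold change was 1.96, against 0.32 over all tested genes. OAS1, which makes the second messenger that activates RNase L, had 6.78, 4.57 and 5.43 FPKM in NC pigs and 51.7, 11.4 and 42.7 FPKM in HFCF pigs. HFCF2 was well below the other HFCF pigs but above all NC pigs, and the log2 fold change was 2.39 ± 0.54 (limma adjusted p = 0.0183). Leaving out any one pig other than HFCF2 ended this call, with adjusted p of up to 0.0628 (limma). IFIH1, which encodes the double-stranded RNA sensor MDA5, had 0.51, 0.34 and 1.18 FPKM in NC pigs and 4.32, 3.06 and 3.03 FPKM in HFCF pigs. Its groups were well apart, at a log2 fold change of 2.33 ± 0.42 (limma adjusted p = 0.0084). EIF2AK2 encodes PKR, the kinase that stops translation on double-stranded RNA. It had 0.92, 0.97 and 1.56 FPKM in NC pigs and 5.74, 4.51 and 6.57 FPKM in HFCF pigs. The lowest HFCF pig was still far above NC3, and the log2 fold change was 2.21 ± 0.27 (limma adjusted p = 0.00255).

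DHX58 encodes LGP2, a relative of MDA5 without signalling domains. It averaged 4.35 ± 2.98 FPKM in NC pigs and 13.2 ± 0.64 FPKM in HFCF pigs (SD, n = 3 each). Its log2 fold change was 1.79 (limma adjusted p = 0.0231), called in 10 of 15 alternatives with adjusted p of up to 0.0869. ZBP1, a sensor of Z-form nucleic acids linked to necroptosis, averaged 2.39 ± 1.01 and 7.18 ± 1.03 FPKM (log2 fold change 1.62, limma adjusted p = 0.0118). OAS2 had 12.8, 7.26 and 38.2 FPKM in NC pigs and 22.6, 22.1 and 86.2 FPKM in HFCF pigs. Within each group one pig was well above the others, NC3 and HFCF3, and the log2 fold change of 1.19 ± 0.73 was not called (limma adjusted p = 0.253, and 0.0244 with the replicate number as a block). ADAR, which edits adenosine to inosine in double-stranded RNA, had 9.39, 9.75 and 12.1 FPKM in NC pigs and 15.7, 13.7 and 6.44 FPKM in HFCF pigs. The groups overlapped, with a log2 fold change of 0.10 ± 0.33 (95% interval -0.68 to 0.89, limma adjusted p = 0.836), which turned negative under each other scaling.

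DDX58, the gene of the RNA sensor RIG-I, rested on a single library. It had 0.062, 0.0015 and 0.13 FPKM in NC pigs and 0.37, 4.81 and 0.043 FPKM in HFCF pigs, so HFCF2 was 13.2 times the next highest HFCF pig. Its log2 fold change of 2.14 ± 1.2 was not called (limma adjusted p = 0.217). OASL, a relative of the OAS enzymes, was listed at 0 in NC1, NC2 and HFCF3 and did not exceed 0.334 FPKM in any pig.

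The antiviral effectors included 10 higher members of 14 tested and none lower, against 22.8% and 6.16% of all tested genes. Their median log2 fold change was 1.99. IFI6, a small mitochondrial and endoplasmic reticulum membrane protein, reached the highest level of all members. It had 52.5, 35.5 and 152.5 FPKM in NC pigs and 416.9, 1467 and 879.8 FPKM in HFCF pigs. NC3 was above the other NC pigs and HFCF1 was the lowest HFCF pig, yet the groups did not overlap, and the log2 fold change was 3.63 ± 0.63 (limma adjusted p = 0.00747). RSAD2 encodes viperin, which makes a chain-terminating nucleotide. It had 0.45, 0.72 and 0.85 FPKM in NC pigs and 9.94, 4.49 and 4.93 FPKM in HFCF pigs. HFCF1 was 2.02 times the next highest HFCF pig, the groups did not overlap, and the log2 fold change was 3.02 ± 0.37 (limma adjusted p = 0.00255). BST2 encodes tetherin, which holds budding virions at the cell surface. It had 1.64, 1.44 and 3.48 FPKM in NC pigs and 20.2, 15.4 and 14.5 FPKM in HFCF pigs. Its HFCF pigs lay close together, at a log2 fold change of 2.97 ± 0.34 (limma adjusted p = 0.00202).

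CMPK2, the mitochondrial kinase encoded next to RSAD2 in mammals, was also higher, with 3.72 ± 1.47 FPKM in NC pigs and 13.6 ± 3.44 FPKM in HFCF pigs (SD, n = 3 each) and a log2 fold change of 1.88 (limma adjusted p = 0.00688). The IFIT proteins bind viral RNA with altered 5′ ends, and all 3 members found in the table were higher. IFIT1 averaged 3.55 ± 1.42 and 24.1 ± 10.5 FPKM (log2 fold change 2.71, limma adjusted p = 0.00343). IFIT2 averaged 2.37 ± 1.17 and 11.8 ± 9.33 FPKM and IFIT5 averaged 3.06 ± 0.42 and 7.40 ± 0.68 FPKM. The rise of IFIT2 (log2 fold change 2.10, limma adjusted p = 0.0312) came with 22.5 FPKM in HFCF1, while HFCF2 and HFCF3 had 5.61 and 7.31 FPKM. Its adjusted p reached 0.103 in the alternatives (limma), and it was not called under any of the 3 other scalings. IFIT5 had the smallest spread of the 3 genes, with a log2 fold change of 1.25 (limma adjusted p = 0.00438). FPKM does not show how reads shared by such related genes were divided.

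The MX genes, whose proteins trap viral nucleocapsids, included 1 called gene, MX2. MX2 averaged 4.22 ± 3.10 FPKM in NC pigs and 19.1 ± 4.76 FPKM in HFCF pigs (SD, n = 3 each), and its log2 fold change was 2.35 (limma adjusted p = 0.0113). MX1 had 27.0, 14.7 and 57.8 FPKM in NC pigs and 51.9, 53.0 and 62.3 FPKM in HFCF pigs. NC3 lay within the HFCF range, and the log2 fold change of 0.96 was not called (limma adjusted p = 0.147, and 0.0197 without NC3). The difference between the 2 genes was not tested.

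IFI44 averaged 2.56 ± 1.66 and 13.9 ± 8.05 FPKM (log2 fold change 2.36, limma adjusted p = 0.0242). This call was lost with the replicate block (0.0687) and without HFCF1, HFCF2, NC1 or NC2, with adjusted p of up to 0.0935 (limma). IFI44L averaged 6.25 ± 4.55 and 14.5 ± 1.22 FPKM, with 11.5 FPKM in NC3, and its log2 fold change of 1.43 (limma adjusted p = 0.0491) was called in 2 of 15 alternatives, with adjusted p from 0.00504 to 0.146. EPSTI1 averaged 7.89 ± 1.78 and 10.4 ± 4.56 FPKM (limma adjusted p = 0.554). GBP2, a large GTPase of the guanylate-binding family, had 4.77, 5.59 and 4.78 FPKM in NC pigs and 6.96, 4.50 and 4.87 FPKM in HFCF pigs. The groups overlapped fully, with a log2 fold change of 0.09 ± 0.21 (95% interval -0.42 to 0.59, limma adjusted p = 0.791). SAMD9, which halts translation in infected cells, had 0.55, 0.45 and 1.02 FPKM in NC pigs and 0.022, 4.53 and 0.23 FPKM in HFCF pigs. As with DDX58, HFCF2 alone was high, at 19.5 times the next HFCF pig, and the log2 fold change was -0.37 ± 1.23 (limma adjusted p = 0.844).

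GBP1 was listed in the table by its gene ID only (ENSSSCG00000024973), which the reference table of gene names pairs with this symbol, so it was no member by the rule. It had 2.78, 2.82 and 3.44 FPKM in NC pigs and 15.1, 5.04 and 6.23 FPKM in HFCF pigs. HFCF1 was the highest and the groups did not overlap (log2 fold change 1.35 ± 0.40, limma adjusted p = 0.0418, from 0.0345 to 0.127 in the alternatives).

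The genes of ISG15 and ADP-ribose conjugation included 6 higher members of 9 and none lower, against 22.8% and 6.16% of all tested genes. Their median log2 fold change was 1.94. ISG15 is a ubiquitin-like protein that is attached to other proteins and also secreted. It had 23.2, 10.3 and 71.9 FPKM in NC pigs and 115.8, 149.6 and 140.1 FPKM in HFCF pigs. The NC pigs were spread widely while the HFCF pigs lay close together, and the log2 fold change was 2.37 ± 0.62 (limma adjusted p = 0.0296). This call was lost with any pig other than NC3 left out, with adjusted p of up to 0.102, and without NC3 the log2 fold change was 3.11 (limma adjusted p = 0.00663). The ISG15 call was also lost with median-ratio scaling, as TPM and with no filter.

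HERC5 and HERC6 belong to the family of ligases that attach ISG15. HERC6 averaged 8.36 ± 4.47 FPKM in NC pigs and 30.4 ± 6.20 FPKM in HFCF pigs (SD, n = 3 each), and its log2 fold change was 1.97 (limma adjusted p = 0.0107). HERC5 averaged 2.32 ± 1.27 and 6.36 ± 1.66 FPKM (log2 fold change 1.52, limma adjusted p = 0.0296). The HERC5 call held in 7 of 15 alternatives, with adjusted p of up to 0.0959 (limma), and was lost under each other scaling. USP18, which removes ISG15 and blocks the type I receptor, averaged 10.9 ± 5.87 and 16.5 ± 3.49 FPKM. NC3 with 17.3 FPKM lay within the HFCF range, and USP18 was not called (log2 fold change 0.72, limma adjusted p = 0.204, and 0.0452 without NC3).

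PARP14, an ADP-ribosyltransferase, had 0.35, 0.70 and 0.89 FPKM in NC pigs and 8.97, 3.94 and 5.01 FPKM in HFCF pigs. All HFCF pigs were far above the NC pigs, at a log2 fold change of 3.01 ± 0.41 (limma adjusted p = 0.00352). PARP9 forms a complex with the ubiquitin ligase DTX3L. PARP9 had 1.10, 1.15 and 2.01 FPKM in NC pigs and 6.78, 5.05 and 5.60 FPKM in HFCF pigs, a log2 fold change of 2.0 ± 0.28 (limma adjusted p = 0.00369). DTX3L averaged 0.65 ± 0.21 and 2.69 ± 0.27 FPKM (log2 fold change 1.94, limma adjusted p = 0.00503), so both partners were higher by similar amounts.

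The TRIM ligases were not called. TRIM21, a cytosolic antibody receptor, had 3.30, 2.91 and 5.11 FPKM in NC pigs and 5.55, 5.74 and 4.83 FPKM in HFCF pigs. NC3 exceeded HFCF3, and the log2 fold change was 0.54 ± 0.24 (limma adjusted p = 0.139, and 0.0405 without NC3). TRIM25, which activates RIG-I, had 9.20, 8.21 and 9.10 FPKM in NC pigs and 9.06, 8.81 and 8.70 FPKM in HFCF pigs. Its groups overlapped, with a log2 fold change of 0.01 ± 0.14 (95% interval -0.32 to 0.33, limma adjusted p = 0.98), which was negative under each other scaling. PML, the organiser of nuclear bodies, had 8.24, 6.55 and 10.9 FPKM in NC pigs and 20.6, 13.3 and 15.6 FPKM in HFCF pigs. The groups did not overlap, and the log2 fold change of 0.94 ± 0.25 was called (limma adjusted p = 0.0291). This call held in 8 of 15 alternatives but under none of the 3 other scalings.

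The pigs of a group did not share one level of these genes. NC3 was the highest NC pig in 33 of 36 tested members, and in 40.3% of all tested genes. Its members lay a median of 0.89 (log2) above the mean of NC1 and NC2, while the median over all genes was 0.06. In 26 members NC3 exceeded the mean of the other NC pigs by more than 1.5 times, and in 17 by more than 2 times. The ratio was highest in ISG15 (4.28), DDX58 (4.17), OAS2 (3.82) and IFI6 (3.47), and OAS1 (0.96) and GBP2 (0.92) lay below 1. The HFCF mean stayed below the level of NC3 in 5 members, IRF9, ADAR, MX1, USP18 and TRIM25. Macrophage markers did not set NC3 apart to this extent, with a median of 0.09 above the other NC pigs and a sum of 57.4 FPKM against 53.7 and 52.6 FPKM. NC3 stood apart in other lists too. Of the 6 pigs it had the lowest sums of adipocyte markers (36.9 FPKM, against 181.3 and 284.0 FPKM in the other NC pigs) and of fibroblast markers (1931 FPKM, against 3451 and 4202 FPKM). Of the NC pigs it also had the lowest sums of endothelial markers (128.3 FPKM, against 205.9 and 230.5 FPKM) and of smooth muscle markers (16413 FPKM). Their part in the levels of NC3 was not tested.

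**Figure D3:**
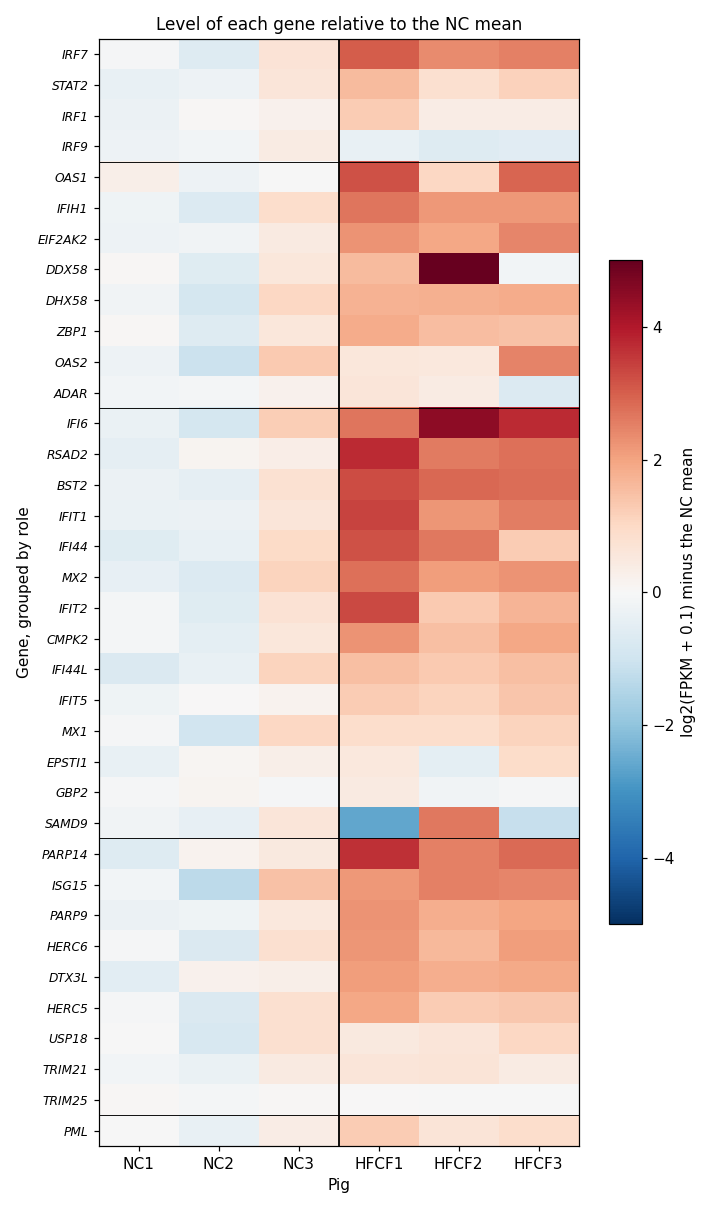
Colour gives log2(FPKM + 0.1) of each tested gene in each pig minus the mean of the 3 NC pigs, from blue (below) to red (above). NC3 was the highest NC pig in 33 of 36 genes, and HFCF2 stands apart from the other HFCF pigs in DDX58 and SAMD9.

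HFCF1 was the highest HFCF pig in 24 of 36 members, against 42.5% of all tested genes, and HFCF2 the lowest in 22. The excess of HFCF1 over the mean of HFCF2 and HFCF3 was a median of 0.35 (log2) in the members and 1.30 in the 13 tested macrophage markers. HFCF1 was the lowest HFCF pig in ISG15 and IFI6, which had the highest levels among the members. Relative to the NC mean, the members lay at a median of 1.89, 1.52 and 1.59 (log2) in the 3 HFCF pigs, and the macrophage markers at 4.63, 3.30 and 3.36.

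**Figure D4:**
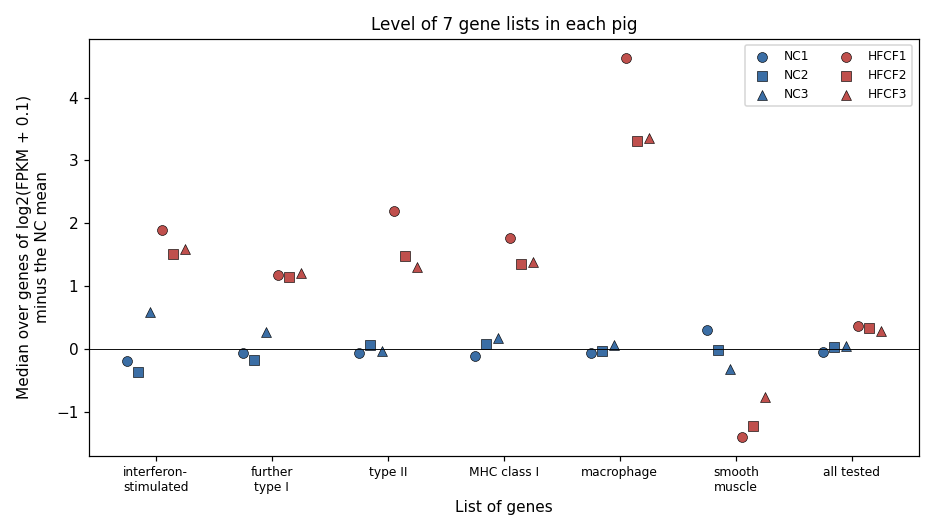
Median over the tested genes of 7 lists of log2(FPKM + 0.1) minus the NC mean, with 1 point per pig (blue NC, red HFCF, shape by number). NC3 stands above the other NC pigs in the interferon-stimulated genes (0.59) and less in the further type I targets (0.27), and HFCF1 stands above the other HFCF pigs most in the macrophage markers (4.63).

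The rest of the pathway was described with lists of its ligands, receptors, kinases, sensors, brakes and targets. Over these lists 41 of 67 tested genes were higher and 2 lower in HFCF pigs, against 22.8% and 6.16% of all tested genes. Of the 41, the 4 genes TLR8, CXCL11, IDO1 and ISG20 had an NC mean under 0.1 FPKM and passed the filter on low values only through the HFCF group, so their levels are given as a description, and 37 were left without them. The listed interferon genes that had a row were at the edge of detection, and IFNL1, IFNL3 and IFNW1 had no row under their name. IFNB1 had 0.0895 FPKM in NC1 and was listed at 0 in the other 5 pigs, and IFNG was listed at 0 in NC1, NC2 and HFCF2 and had 0.24, 0.31 and 0.30 FPKM in NC3, HFCF1 and HFCF3. IFNA1 averaged 0.063 FPKM in NC pigs and 0.20 FPKM in HFCF pigs, with overlap between the groups (limma adjusted p = 0.211). Of this list IFNA1, IFNG and the cytokine IL6, which is no interferon, were tested. None was called by limma, and 0 had an unadjusted p under 0.05.

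The receptor chains were present in both groups. IFNAR1 had 7.88, 14.3 and 13.2 FPKM in NC pigs and 31.8, 17.7 and 19.3 FPKM in HFCF pigs, which did not overlap but was not called (log2 fold change 0.95, limma adjusted p = 0.0546). Of the type II receptor, IFNGR1 averaged 6.91 and 12.3 FPKM (log2 fold change 0.82, limma adjusted p = 0.0248) and IFNGR2 12.9 and 26.9 FPKM (log2 fold change 1.04, limma adjusted p = 0.0138), so both chains were called higher with the deposited values. IFNGR1 was called in 8 and IFNGR2 in 14 of 15 alternatives. Under each of the 3 other scalings IFNGR2 was called and IFNGR1 was not. IFNLR1, the specific chain of the type III receptor, was lower, with 2.80, 2.65 and 3.61 FPKM in NC pigs and 0.91, 1.18 and 1.27 FPKM in HFCF pigs (log2 fold change -1.35, limma adjusted p = 0.00808). This call held in all 15 alternatives. IFNAR2 had no row under its name.

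None of the kinases was called by limma, and JAK2 alone had an unadjusted p under 0.05. JAK1 had 35.8, 42.2 and 37.9 FPKM in NC pigs and 40.5, 35.1 and 40.0 FPKM in HFCF pigs (limma adjusted p = 0.987). TYK2 averaged 35.2 and 37.5 FPKM (limma adjusted p = 0.609). JAK2 averaged 1.08 and 1.94 FPKM (limma adjusted p = 0.0545).

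Among further sensors and adaptors, 7 of 11 were higher (6 without TLR8) and MAVS was lower, against 22.8% and 6.16% of all tested genes. TLR8, an endosomal sensor of single-stranded RNA, averaged 0.039 FPKM in NC pigs and had 4.35, 2.19 and 2.09 FPKM in HFCF pigs. TLR3, the endosomal sensor of double-stranded RNA, averaged 0.16 and 2.73 FPKM (log2 fold change 3.51, limma adjusted p = 0.00179). CGAS, the cytosolic DNA sensor, averaged 0.12 and 0.73 FPKM (log2 fold change 1.98, limma adjusted p = 0.018), and its adaptor STING1 averaged 6.51 and 13.5 FPKM without being called (limma adjusted p = 0.113). MAVS, the mitochondrial adaptor of RIG-I and MDA5, had 16.0, 15.6 and 21.3 FPKM in NC pigs and 9.46, 11.9 and 10.4 FPKM in HFCF pigs. The groups did not overlap, with a log2 fold change of -0.72 (limma adjusted p = 0.0246) that was called in 10 of 15 alternatives. IRF3, which MAVS and STING1 activate through TBK1, averaged 23.0 and 34.6 FPKM (log2 fold change 0.59, limma adjusted p = 0.0367). It was called in 5 of 15 alternatives but under none of the 3 other scalings. TBK1 averaged 0.57 and 0.88 FPKM (limma adjusted p = 0.366).

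The brakes of the pathway included 6 higher genes of 8, against 22.8% of all tested genes. Of these, PIAS1, PTPN2, TREX1 and RNASEH2B were not called under any of the 3 other scalings. SOCS1, the inhibitor of JAK kinases, averaged 0.34 and 1.07 FPKM (log2 fold change 1.41, limma adjusted p = 0.0167), a call lost with quantile normalization and without HFCF2 or NC2 (adjusted p up to 0.106), while SOCS3 averaged 29.6 and 20.9 FPKM and was not called (limma adjusted p = 0.388). PTPN6, a tyrosine phosphatase, had the largest difference of the list, with averages of 1.04 and 26.1 FPKM (log2 fold change 4.35, limma adjusted p = 0.00115).

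**Figure D5:**
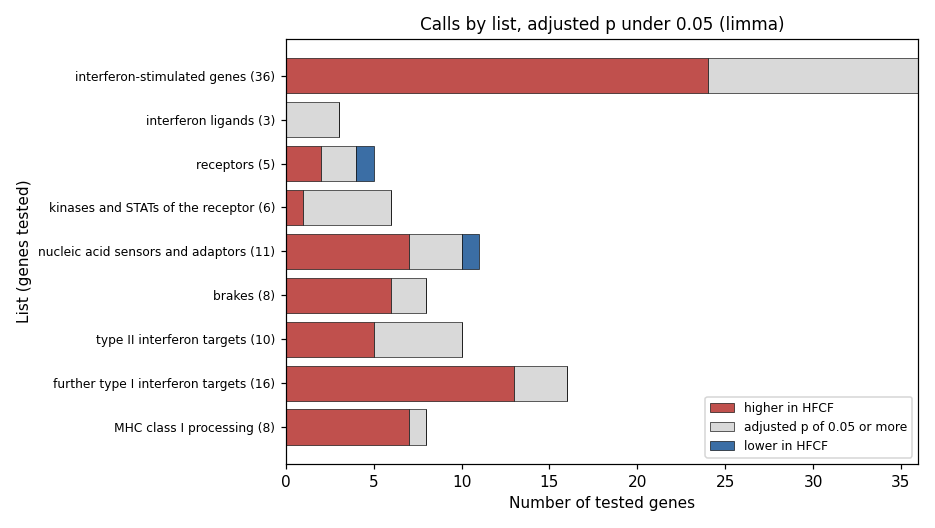
Number of tested genes in the interferon-stimulated genes and in 8 further lists of the pathway that were higher in HFCF (red), lower in HFCF (blue) or had an adjusted p of 0.05 or more (grey). The ligands had no called gene, and blue is seen only for IFNLR1 among the receptors and MAVS among the sensors and adaptors.

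Targets that respond mainly to type II interferon included 5 higher genes of 10 tested, or 3 without CXCL11 and IDO1, against 22.8% of all tested genes. CXCL10, a chemokine for T and NK cells, averaged 1.52 and 15.5 FPKM (log2 fold change 3.31, limma adjusted p = 0.00105). CXCL11 was listed at 0 in NC1 and NC3, had 0.035 FPKM in NC2 and had 0.66, 0.45 and 0.40 FPKM in HFCF pigs. CXCL9 had 0.30, 2.19 and 3.30 FPKM in NC pigs and 4.23, 4.07 and 3.47 FPKM in HFCF pigs, without a call (limma adjusted p = 0.179). IDO1 was listed at 0 in all 3 NC pigs and had 0.43, 0.21 and 0.15 FPKM in HFCF pigs. In this list NC3 did not stand above the other NC pigs, with a median of -0.04 (log2) relative to them.

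A further 28 symbols of type I targets had 17 rows, of which 16 were tested. Of these, 13 were higher (12 without ISG20) and none was lower, against 22.8% and 6.16% of all tested genes. ISG20, a nuclease, averaged 0.030 FPKM in NC pigs and had 4.51, 0.32 and 0.66 FPKM in HFCF pigs. ETV7, a transcription factor, averaged 0.53 and 2.93 FPKM (log2 fold change 2.16, limma adjusted p = 0.00819). UBA7 and UBE2L6, the enzymes that activate and carry ISG15, averaged 7.32 and 13.6 FPKM (limma adjusted p = 0.0334) and 5.53 and 15.5 FPKM (limma adjusted p = 0.0124), and were called in 4 and 14 of 15 alternatives. UBA7 was not called under any of the 3 other scalings. NC3 lay a median of 0.40 (log2) above the other NC pigs in this list and was the highest of them in 10 of 16 genes.

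Genes of MHC class I processing, which respond to both interferons, were higher in 7 of 8 tested, against 22.8% of all tested genes. B2M, the light chain of MHC class I, averaged 85.1 and 311.9 FPKM (log2 fold change 1.92, limma adjusted p = 0.00311). PSMB9, a subunit of the immunoproteasome, averaged 2.12 and 9.87 FPKM (log2 fold change 2.08, limma adjusted p = 0.0049). Over the 8 genes the log2 fold change had its median at 1.51, below the 1.83 of the interferon-stimulated genes, and the difference was not tested.

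The GO annotation in the table gave the term defense response to virus to 19 of 35 annotated members. Another 91 tested genes carried this term, of which 30 (33.0%) were higher and 4 lower in HFCF pigs. Over all tested genes, 22.8% were higher and 6.16% lower. The median log2 fold change of these 91 genes was 0.81, against 0.32 over all tested genes. The term innate immune response was carried by 10 members and by 138 other genes. Of the latter, 51 (37.0%) were higher and 3 lower, with a median log2 fold change of 0.84. These terms were chosen after the members' values had been seen. In KEGG, the pathway Influenza A held 12 of the 22 annotated members, and of its 119 other tested genes 33 were higher (27.7%, against 22.8% of all tested genes) and 6 lower. Hepatitis C, Measles and Herpes simplex virus 1 infection held 9 members each. Of their other tested genes, 15.7%, 20.4% and 27.8% were higher, so the share was not above that of all genes in each pathway.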

How the data were processed

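RNA from the abdominal aorta of 3 NC and 3 HFCF pigs was sequenced as paired-end reads. The authors trimmed reads with cutadapt (1.9 in the submitters' processing notes), used HISAT2 for alignment and StringTie for assembly, and deposited FPKM per gene, where 0.0001 stands for 0. The methods name an older genome build than the gene tables used here, so no coordinates are given. No sequences were used.

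FPKM was used as deposited. log2(FPKM + 0.1) was tested with limma 3.58.1 in R 4.3.3 for genes averaging 0.1 FPKM or more, with diet as factor and a trended eBayes variance, and p-values were adjusted by Benjamini-Hochberg across the tested genes. The limma step was also run on simulated data without a difference in scaling between the groups, so that run does not address the scaling. Full statistics were given for STAT2, IRF9, IRF7, IRF1 and ISG15, for the 3 largest positive and 2 most negative log2 fold changes of each role group, for key pathway genes where present, and for the 2 called genes of each pathway list with the largest change. TLR8, CXCL11 and ISG20, which this rule names, are given by level only. GBP1, IFNA1, IL6, IDO1, PIAS1, PTPN2, TREX1, RNASEH2B, UBA7, UBE2L6, NKG7, XCL1, TRAT1, CD79A and CSF3R were named outside this rule, after their values were seen. The members and lists were chosen with earlier results of these data known. With 3 pigs against 3, an exact permutation test of 1 gene cannot go below p = 0.1. The alternatives were 2 pseudocounts, 2 filters, 3 scalings, no variance trend, a replicate block and each pig left out in turn. The planned search for promoter motifs was not run. The result of 1 gene of the pathway lists is not reported here.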

Additional observations from a re-analysis of the deposited data

How the results depend on the processing

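The count of higher interferon-stimulated genes (24 with the deposited values) lay between 14 and 26 with 1 pig left out, and their median log2 fold change (1.83) between 1.48 and 2.13. The median was 1.48 with median-ratio scaling, 1.40 with quantile normalization, 1.60 as TPM and 1.29 with a pseudocount of 1. IRF9 was the 1 member called lower under each of the 3 scalings. Over all genes, 3505 were higher and 948 lower as deposited, 2032 and 1968 with median-ratio scaling, 1748 and 1782 with quantile normalization, 2229 and 1527 as TPM, and between 1961 and 2800 higher and between 438 and 784 lower with 1 pig left out. In the other pathway lists, 41 genes were higher and 2 lower as deposited. These became 25 and 4 after median-ratio scaling, 26 higher with quantile normalization, 26 higher as TPM, and between 20 and 36 higher and between 1 and 2 lower with 1 pig left out. The lower cell type markers (7) were 3 with no filter and between 2 and 9 with 1 pig left out. Why these counts moved was not tested.

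With the replicate number as a block, 2232 genes were higher and 540 lower, 1 gene was lower in the pathway lists and 4 cell type markers were lower, while 22 interferon-stimulated genes were higher. Deviations of same-numbered pigs correlated at 0.02, -0.08 and -0.07 across genes, so the numbers were not read as pairs.

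Signs turned in genes with differences near 0 or, for SAMD9, a wide spread. ADAR was -0.25, -0.14 and -0.155 (log2) under median-ratio, quantile and TPM scaling, and between -0.139 and 0.50 with 1 pig left out (-0.042 without HFCF2). GBP2 was -0.265, -0.30 and -0.17 under the same scalings, and between -0.10 and 0.21 with 1 pig left out. TRIM25 was -0.35, -0.28 and -0.25, and between -0.046 and 0.035 with 1 pig left out (-0.011 without HFCF1). TYK2 was -0.26, -0.0155 and -0.16, and EPSTI1 was -0.040 with median-ratio scaling. SAMD9 was 0.20 with a pseudocount of 1, and between -1.88 and 0.75 with 1 pig left out (0.024 without HFCF3). JAK1 was between -0.056 and 0.062 with 1 pig left out. Sequencing depth is not known, which limits members under 1 FPKM most.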
